A study of Mus musculus with 18 samples.

Results

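The nuclear genes of mouse oxidative phosphorylation were followed in duodenal crypts and in enteroids grown from them, in wild-type (WT) mice and in mice lacking MTGR1, a transcriptional corepressor encoded by Cbfa2t2. Members were all genes whose symbol begins with Nduf, Uqcr, Cox4 to Cox8 or Atp5, or is Sdha, Sdhb, Sdhc or Sdhd, leaving out 2 hyphenated entries. The rule gave 89 of the 18838 genes listed at any time point: 36 subunits of complex I, 4 of complex II, 8 of complex III, 16 subunits and isoforms of complex IV, 17 of complex V, and 8 complex I assembly factors with symbols beginning Ndufaf. Ndufa4 and Ndufa4l2 were counted with complex IV, where their proteins reside. The 4 complex II assembly factors, Sdhaf1 to Sdhaf4, are outside the pattern and were counted apart for comparison.

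RNA came from 18 libraries in 6 groups of 3 mice: WT and Mtgr1-/- crypts at isolation, and WT and Mtgr1-/- enteroids after 24 h (D1) and 72 h (D3) in culture. The Mtgr1-/- mice were global nulls and both genotypes were age-matched littermates of 8 to 12 weeks, male and female. Crypts were embedded in Matrigel, an extracellular matrix gel, and kept in medium with EGF, Noggin and R-spondin. In what follows "null" means a library labelled Mtgr1-/-. The Cbfa2t2 count was not called lower in null libraries at any time point (log2 difference -0.05 in crypts and 0.06 at D3, and for D1 788, 710 and 757 in WT and 1160, 1008 and 789 in null, adjusted p = 0.056). Counts were given per gene only, so the targeted part could not be looked at separately. The reason why the count was not lower was not tested.

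Oxidative phosphorylation is carried out by 5 complexes of the inner mitochondrial membrane. Complexes I and II feed electrons from NADH and succinate to ubiquinone, complex III passes them to cytochrome c, complex IV to oxygen, and complex V, the ATP synthase, uses the resulting proton gradient. Each complex except complex II combines nuclear with mitochondrially encoded subunits, and complex I in particular is put together stepwise with assembly factors that are absent from the finished enzyme. In the small intestine, absorptive enterocytes carry many mitochondria, and stem cells of the crypt depend on mitochondrial respiration as well.

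Values are normalized read counts, that is, reads per gene divided by 1 factor per library within the table of a time point. Differences are null minus WT on the scale of log2(normalized count + 1), and a gene was called higher or lower at a Benjamini-Hochberg adjusted p under 0.05 over all genes tested (limma). Library depth was 22.0 to 28.6 M reads in the 16 libraries for which it could be recovered. Normalized counts summed to 22.9 to 24.9 M in WT and 27.1 to 31.2 M in null at D1, and to 23.6 to 24.2 M in WT and 26.1 to 29.5 M in null at D3, whereas the crypt genotypes overlapped (25.1 to 25.8 and 23.8 to 27.0 M). Scaling every library to the same total therefore moved the median difference of all genes by -0.32 at D1 and by -0.20 at D3, and the main directions below are given with their values under that scaling. Mitochondrially encoded transcripts made up 5.67% to 6.99% of 16 libraries and 13.4% and 11.7% of the WT and null crypt libraries of mouse 3. In bulk RNA, fewer cells of a type and less RNA per cell cannot be told apart.

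Some promoters of these genes hold short sequences that known regulators of mitochondrial genes can bind. Stretches of 3 promoters are shown as examples of an assembly factor gene and of subunit genes called at D1 on the deposited values. RefSeq promoters (GRCm38.p6, 250 bases before to 50 after the start) matched 74 of the 89 members, with 79 promoters. The letters GCGCANGCG, bound by nuclear respiratory factor NRF1, occurred on either strand in 29.11% of member promoters and in 6.249% of all 32851 promoters. The letters CCGGAAG, bound by ETS factors such as GABPA, occurred in 24.05% and 8.858%, AAGATGGCG (YY1) in 10.13% and 1.403%, and CAAGGTCA (ESRRA) in 5.063% and 1.559%. CAAAGTCCA (HNF4A) was in none of the 79 member promoters and in 0.4749% of all promoters. No matches to different letters overlapped in a member promoter. The 150 bases before the start of Ndufaf4, a complex I assembly factor that fell, of Cox6a1, the complex IV subunit with the largest rise at D1, and of Sdha, the catalytic subunit of complex II, are printed from RefSeq on the coding strand with matches in capitals. Those in the Ndufaf4 and Sdha promoters are NRF1 letters, and in the Cox6a1 promoter the first is the NRF1 match and the second the ETS match. The stretches were chosen after the values were seen, and only among called genes with the NRF1 letters in these 150 bases. The NRF1 matches in them were thus fixed by the choice. They lie at chr4:24897933-24898082 (plus strand), chr5:115348959-115349108 (minus strand) and chr13:74350241-74350390 (minus strand). In the GENCODE annotation Cox6a1 and Sdha begin at 115348981 and 74350280, inside these stretches. The ETS match of Cox6a1 and the last match of Sdha thus lie within the genes as annotated there.
Ndufaf4: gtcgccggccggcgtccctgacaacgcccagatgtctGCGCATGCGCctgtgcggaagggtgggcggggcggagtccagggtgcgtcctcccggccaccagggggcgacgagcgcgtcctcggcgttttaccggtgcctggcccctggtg
Cox6a1: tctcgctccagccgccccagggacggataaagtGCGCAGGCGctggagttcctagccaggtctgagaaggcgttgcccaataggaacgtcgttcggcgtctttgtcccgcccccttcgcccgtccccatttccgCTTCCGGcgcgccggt
Sdha: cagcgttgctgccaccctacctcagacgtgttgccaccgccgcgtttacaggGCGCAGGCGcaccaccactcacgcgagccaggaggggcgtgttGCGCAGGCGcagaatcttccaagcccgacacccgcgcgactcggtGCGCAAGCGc
In the Ndufaf4 stretch the capitals cover a match on each strand, and the Sdha stretch holds 3 matches. Grouped by their D1 calls on the deposited values, the NRF1 letters were found in 12 of 32 promoters of subunits called higher, in 9 of 40 promoters of subunits not called, and in 2 of 5 promoters of assembly factors called lower (those of Ndufaf4 and Ndufaf5). A match describes the letters in the window and does not show binding.

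To ask whether MTGR1 loss altered these genes in the intact tissue, freshly isolated crypts were compared first. In crypts 0 of the 87 members tested were called in either direction, where 1.58% of all 12980 genes tested were called higher and 3.15% lower. Only 2 members had an unadjusted p under 0.05, or 2.30%, against 18.5% of all genes, and edgeR and DESeq2, run without WT crypt library 2, each called 0 members. The median difference of the members was 0.05, beside 0.01 for all genes. The assembly factor Ndufaf5, whose protein hydroxylates a core subunit of complex I, came nearest, with normalized read counts of 466, 494 and 407 in WT and 390, 313 and 321 in null (log2 difference -0.42, SE 0.14, adjusted p = 0.16). Summed over all members, on a scale where each library totals 1000000 counts (CPM), WT crypts had 22796, 23156 and 20220 CPM and null crypts 24666, 22377 and 22290 CPM, and the groups overlapped. The same sum was lower in all 12 enteroid libraries, between 16762 and 19119, although crypts and enteroids were not compared by a test.

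At D1 the subunit genes and the complex I assembly factors moved in opposite directions. Of the 86 members tested, 34 were called higher in null enteroids, or 39.5% beside 30.0% of all 12587 genes tested, and 6 were called lower, or 6.98% beside 28.9% of all genes. Every gene called higher was a subunit and every gene called lower was an assembly factor. The median difference was 0.25 for the 78 subunits tested and -0.52 for the 8 assembly factors, beside -0.01 for all genes. With every library scaled to the same total, the median of the subunits was -0.07, that of the assembly factors -0.84 and that of all genes -0.33, so that the sign for subunits flipped while their distance from the median of all genes stayed at 0.25 and that of the assembly factors at -0.51. On that scaling 2 members were called higher (Cox6a1 and Ndufb9) and 16 lower, 9 subunits and 7 assembly factors, where 17.5% of all genes were called higher and 44.4% lower. Groups that do not overlap were common at D1 and D3: every null library was above every WT library for 34.2% and 34.6% of all genes tested, and below for 33.9% and 34.2%, which is the background of each statement below that genotypes were apart. With WT library 3 left out the deposited values gave 24 calls, 19 of them higher, and with null library 3 left out 22 subunits were called higher.

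**Figure D1:**
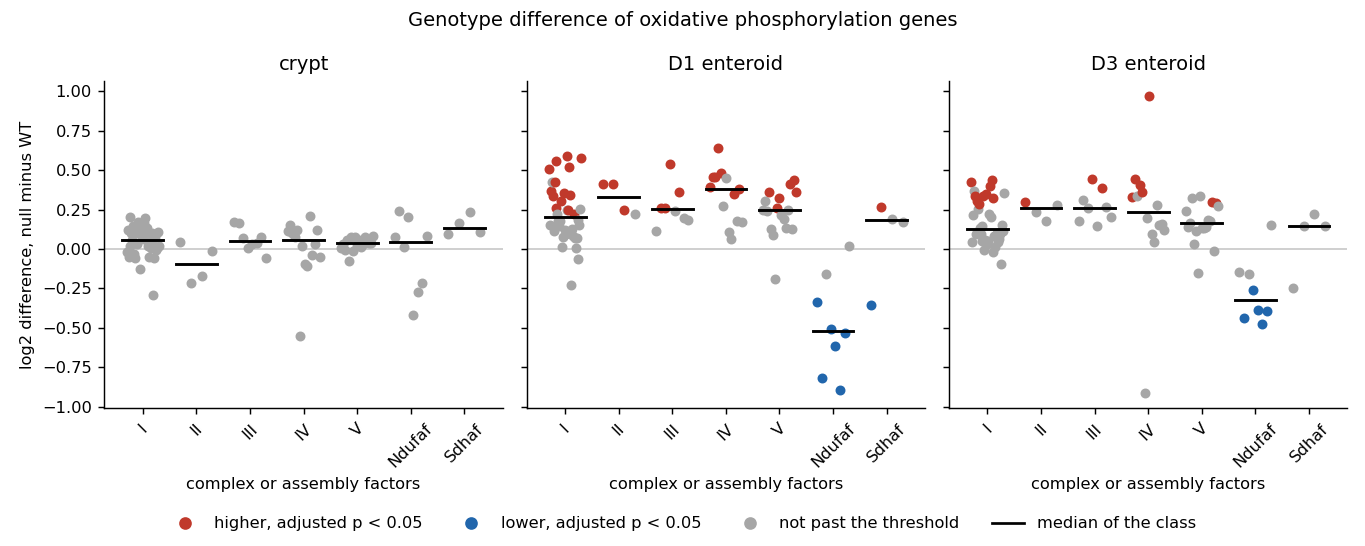
Each point is 1 gene, plotted by complex or assembly factor group on the x axis and by its log2 difference (null minus WT, deposited normalized counts) on the y axis; red and blue points passed an adjusted p under 0.05 and the black bar is the median of the group. No gene passed in crypts, while at D1 and D3 the called subunits lie above 0 and the called Ndufaf genes below; with equal library totals the D1 median of the subunits was -0.07 and that of the Ndufaf genes -0.84.

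Of the 6 assembly factors called lower at D1, 5 kept the call on every scaling tried. Ndufaf6, which is needed for an early step of complex I assembly, had normalized read counts of 256, 273 and 246 in WT and 134, 156 and 127 in null enteroids at D1 (log2 difference -0.89, SE 0.14, adjusted p = 0.0015). The highest null value was well below the lowest WT value. Ndufaf2, a late-acting factor related to the subunit Ndufa12, had 374, 381 and 303 in WT and 181, 250 and 172 in null (-0.82, SE 0.18, adjusted p = 0.006). Ndufaf5 had 492, 442 and 554 in WT and 307, 325 and 334 in null (-0.62, SE 0.12, adjusted p = 0.0036). Again the groups did not overlap for either gene, and the 3 null libraries of Ndufaf5 were closer to each other than those of WT.

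Ndufaf7, a methyltransferase needed for complex I assembly, had 437, 467 and 468 in WT and 297, 348 and 303 in null (-0.53, SE 0.11, adjusted p = 0.0051). Ndufaf4, which acts together with Ndufaf3, was the most highly counted of the group, with 1578, 1583 and 1547 in WT and 1107, 1283 and 945 in null (-0.51, SE 0.12, adjusted p = 0.0072). Ndufaf1, part of the assembly complex that also holds the products of Ecsit and Acad9, had 592, 568 and 556 in WT and 452, 500 and 409 in null (-0.34, SE 0.11, adjusted p = 0.030). The genotypes were apart for each of these 3 genes. Ndufaf3 and Ndufaf8 were not called on the deposited values, with differences of -0.16 and 0.02. With equal totals these were -0.48 and -0.30, and Ndufaf3 was called lower there but Ndufaf8 was not. Ndufaf2, Ndufaf4, Ndufaf5, Ndufaf6 and Ndufaf7 were called lower under all 18 alternatives tried at D1, among them the omission of each library in turn. The 6 genes lie on 4 chromosomes (GRCm38), Ndufaf2 at chr13:108002715-108158623, Ndufaf1 and Ndufaf5 on chromosome 2, Ndufaf4 and Ndufaf6 on chromosome 4 and Ndufaf7 on chromosome 17.

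**Figure D2:**
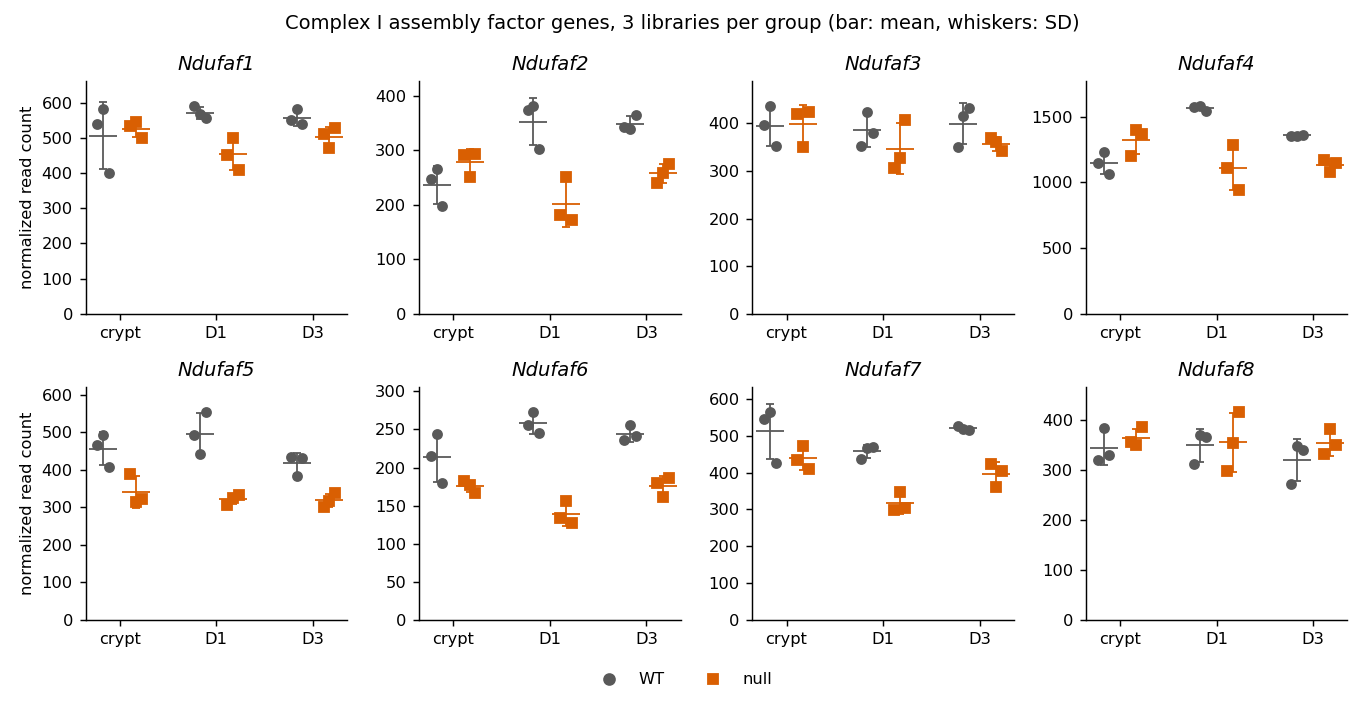
Normalized read counts (y axis, starting at 0) of the 8 complex I assembly factor genes in each of the 3 libraries per group, with the mean as a bar and the SD as whiskers; counts of different time points were normalized separately. For Ndufaf1, Ndufaf2, Ndufaf4, Ndufaf5, Ndufaf6 and Ndufaf7 every D1 null library lies below every D1 WT library, as for 33.9% of all genes tested, and for Ndufaf3 and Ndufaf8 the genotypes overlap.

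As a share of the library, the 8 assembly factors together made up 176, 196 and 187 CPM in WT D1 enteroids and 98.9, 131 and 99.97 CPM in null. The 36 complex I subunits made up 3381, 3597 and 3332 CPM in WT and 3063, 3300 and 3248 CPM in null, so that the null share was lower for both sets and the gap was wider for the assembly factors. The difference between the mean log2 count of the assembly factors and that of the subunits does not depend on the scaling. It was -2.05 ± 0.05 in WT and -2.76 ± 0.18 in null (SD, n = 3), lower in null by 0.71, and no null library reached the WT range. In crypts it was -2.60 ± 0.11 in WT and -2.69 ± 0.07 in null, and the genotypes overlapped.

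**Figure D3:**
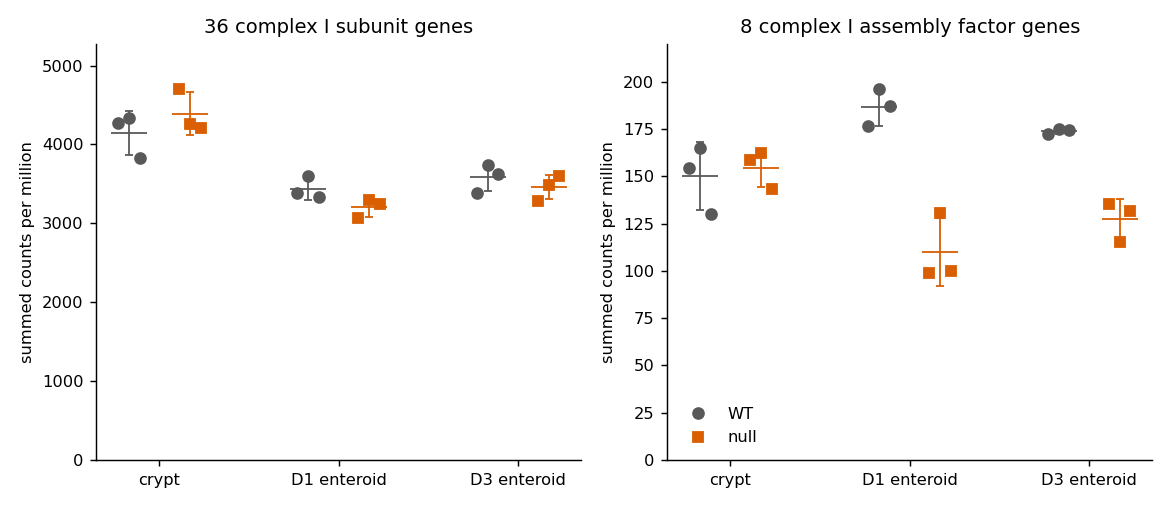
Summed CPM (y axis, starting at 0) of the 36 complex I subunit genes and of the 8 complex I assembly factor genes in each library, with the mean as a bar and the SD as whiskers. The assembly factor sums of the null libraries are below those of WT at D1 (98.9 to 131 against 176 to 196) and at D3, while in crypts the genotypes overlap.

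Among the subunits of complex I, 14 of 36 were called higher at D1, 1 of the 7 core subunits (Ndufs3) and 13 of the 29 accessory subunits. That was 38.9%, beside 30.0% of all genes, and none was called lower. The median was 0.20 on the deposited scale and -0.12 with equal totals, where 1 was called higher and 6 lower, and the calls fell to 9 without WT library 2, null library 1 or null library 3. Ndufb7, an accessory subunit of the membrane arm, had 1589, 1643 and 1604 normalized reads in WT and 2218, 2265 and 2832 in null (0.59, SE 0.11, adjusted p = 0.0026). Ndufv3, an accessory subunit of the NADH-oxidising module, had 1357, 1387 and 1181 in WT and 1851, 1806 and 2225 in null (0.58, SE 0.11, adjusted p = 0.0032), and Ndufa6 had 2681, 2595 and 2347 in WT and 3591, 3454 and 4232 in null (0.56, SE 0.10, adjusted p = 0.0026). All 3 null libraries were above WT for each, yet with equal totals the differences were 0.27, 0.26 and 0.24 and none of these 3 genes passed (adjusted p = 0.064, 0.071 and 0.054). Ndufb9, the most abundant complex I subunit per length in D1 WT enteroids at 186 ± 1.21 CPM per kilobase (SD, n = 3), had 3259, 2990 and 3119 normalized reads in WT and 4598, 3960 and 4944 in null (0.52, SE 0.10, adjusted p = 0.0032). It was called higher under all 18 alternatives, with 0.20 (adjusted p = 0.044) at equal totals. Complex I subunits called lower with equal totals included Ndufb11, Ndufc2, Ndufs4, Ndufs5 and Ndufs8.

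Complex II, or succinate dehydrogenase, is encoded entirely in the nucleus and also belongs to the citrate cycle. At D1, 3 of its 4 genes were called higher, or 75% beside 30.0% of all genes. With equal totals none was called, and without WT library 3 the deposited values gave 1 call. Sdha, the flavoprotein, had 15257, 13753 and 13527 in WT and 19642, 17165 and 19811 in null (0.41, SE 0.10, adjusted p = 0.011). Sdhb, the iron-sulfur subunit, had 5564, 5112 and 5275 in WT and 7198, 6258 and 7904 in null (0.42, SE 0.10, adjusted p = 0.0099). Null libraries were above WT in both genes, and with equal totals both differences were 0.09. The membrane anchor Sdhc had 5040, 4678 and 4590 in WT and 5830, 5326 and 5807 in null (0.25, SE 0.08, adjusted p = 0.033; -0.08 with equal totals). Sdhd, the other anchor and the most abundant per length at 356 ± 15.8 CPM per kilobase in WT (SD, n = 3), did not pass (0.22, adjusted p = 0.087; -0.097 with equal totals). Sdha lost its call without WT library 3 (adjusted p = 0.051) and Sdhc when WT library 2 or 3 or null library 1 or 3 was left out (adjusted p of up to 0.12).

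The 4 complex II assembly factors were split. Sdhaf1, which helps to insert the iron-sulfur clusters of Sdhb, had 403, 417 and 426 in WT and 299, 337 and 340 in null at D1 (-0.35, SE 0.11, adjusted p = 0.025). Sdhaf2, which attaches the flavin to Sdha, had 932, 871 and 913 in WT and 1180, 1043 and 1053 in null (0.27, SE 0.09, adjusted p = 0.033), a direction that flipped to -0.05 with equal totals. The differences of Sdhaf3 and Sdhaf4 were 0.19 and 0.17 (-0.13 and -0.15 with equal totals) and neither passed. Neither call was stable to the omission of 1 library: with any 1 WT library or null library 1 left out the adjusted p was 0.06 to 0.092 for Sdhaf1 and 0.067 to 0.12 for Sdhaf2.

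In complex III, 4 of 8 genes were called higher at D1, or 50% beside 30.0% of all genes. The median was 0.25 on the deposited scale and -0.07 with equal totals, where none was called. Without WT library 2, WT library 3 or null library 3 there were 2 calls. Uqcrc1, a subunit on the matrix side, had 12885, 11276 and 12293 in WT and 17785, 15271 and 20285 in null (0.54, SE 0.12, adjusted p = 0.0071; 0.22 and 0.054 with equal totals). Uqcrfs1, the Rieske iron-sulfur protein, had 6533, 6000 and 5907 in WT and 8129, 7360 and 8226 in null (0.36, SE 0.09, adjusted p = 0.0086). The groups were apart on the deposited scale for both. Uqcr11 had a difference of 0.26 (adjusted p = 0.049) that flipped to -0.06 with equal totals, and Uqcrh, the most abundant per length, was not called (0.19, adjusted p = 0.077; -0.13 with equal totals). The call of Uqcr11 was lost without each library except null library 1, with an adjusted p of up to 0.15 without WT library 3.

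Complex IV, or cytochrome c oxidase, had the highest class median at D1, 0.38 on the deposited scale and 0.06 with equal totals. Of its 13 genes tested 7 were called higher, or 53.8% beside 30.0% of all genes. The calls were 4 without WT library 3, and 1 higher and 1 lower with equal totals. Cox6a1, a regulatory subunit of the membrane part, had 6090, 6037 and 5858 in WT and 8990, 8038 and 11314 in null (0.64, SE 0.13, adjusted p = 0.0038). Its rise, the largest of any member at D1 on the deposited scale, was called under all 18 alternatives, with 0.32 (adjusted p = 0.026) at equal totals. Cox6b1, on the cytochrome c side, had 7154, 6500 and 6163 in WT and 9505, 8368 and 9781 in null (0.48, SE 0.10, adjusted p = 0.0045), and Cox5a had 7145, 6373 and 6452 in WT and 9370, 8169 and 9937 in null (0.46, SE 0.10, adjusted p = 0.0062). In each of these 3 genes the lowest null library exceeded the highest WT library. Cox6b1 and Cox5a were not called with equal totals (0.16 and 0.14), and Cox7a2 was called lower there (-0.21, adjusted p = 0.038) after a deposited difference of 0.11.

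Complex V had 6 of 17 genes called higher at D1, or 35.3% beside 30.0% of all genes. Its median of 0.25 became -0.07 with equal totals. The calls were 2 without WT library 3, and 0 higher and 2 lower with equal totals. Atp5o, a subunit of the stalk that holds the catalytic head in place, had 8649, 7760 and 7255 in WT and 10922, 10290 and 10716 in null (0.44, SE 0.09, adjusted p = 0.0053). Atp5md, a small membrane subunit, and Atp5pb, the peripheral stalk b subunit, differed by 0.42 (adjusted p = 0.0082) and 0.36 (adjusted p = 0.012). All 3 kept their sign but lost their call with equal totals. Atp5b, the catalytic beta subunit and the most abundant member of complex V per length, had 62425, 54665 and 57442 in WT and 74399, 63806 and 77438 in null and was not called (0.30, adjusted p = 0.11; -0.02 with equal totals). Without WT library 3, Atp5pb had an adjusted p of 0.051.

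Atp5g1, Atp5g2 and Atp5g3 encode the same mature c subunit of the ATP synthase ring with different import sequences. Atp5g3, the most abundant of them per length, was called higher (0.26, adjusted p = 0.047) but not when any 1 WT library, or null library 1 or 3, was left out (adjusted p of up to 0.17). Levels per length used a transcript of 4715 bases for Atp5g1 and of 731 and 723 bases for Atp5g2 and Atp5g3. The order of these levels depends on those lengths. Atp5g1 had a difference of 0.09 (adjusted p = 0.4). Atp5g2 had 4191, 4203 and 4079 in WT and 3493, 3637 and 3833 in null, with every null library lower, and did not pass (-0.19, adjusted p = 0.063). With equal totals Atp5g2 was called lower (-0.51, adjusted p = 0.002), as was Atp5g1 (-0.23, adjusted p = 0.043), while Atp5g3 was not (-0.06). Differences between the 3 genes were not tested.

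**Figure D4:**
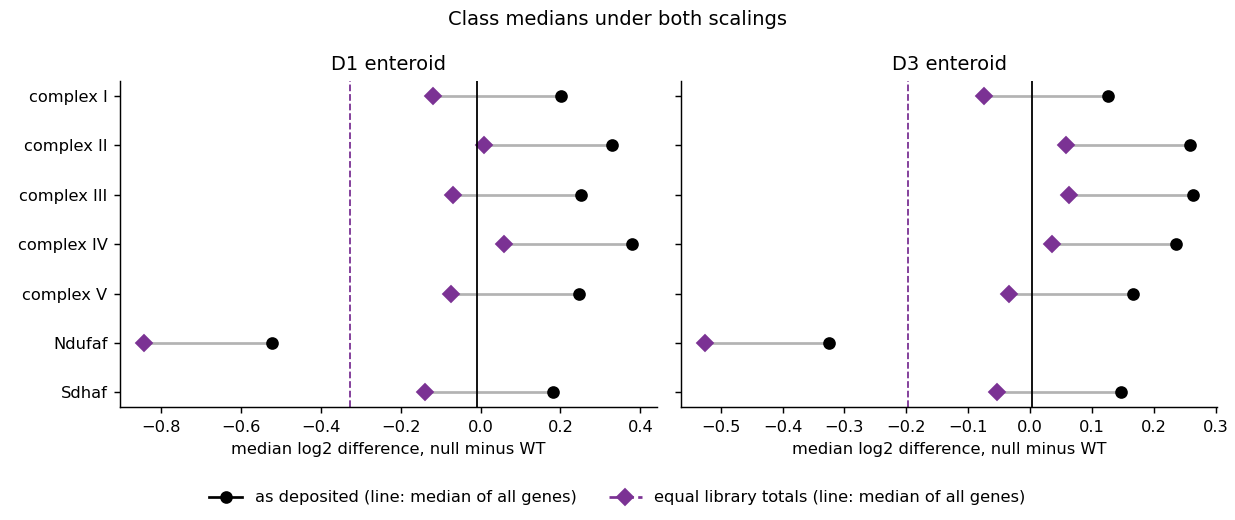
Median log2 difference (x axis, null minus WT) of each complex and of the Ndufaf and Sdhaf groups at D1 and D3, for the deposited counts (circles) and after scaling each library to the same total (diamonds); solid and dashed vertical lines are the medians of all genes tested on the same scalings. At D1 complexes I, III and V change sign between the scalings, complexes II and IV do not, and the Ndufaf group is negative on both (-0.52 and -0.84).

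At D3 the same directions were present with smaller differences. Of 87 members tested 19 were called higher, or 21.8% beside 29.9% of all 12782 genes, and 5 lower, or 5.75% beside 29.1%. The median was 0.18 for the subunits and -0.32 for the assembly factors, beside 0.00 for all genes, and with equal totals -0.02, -0.53 and -0.20. Complexes I to V had 9 of 36, 1 of 4, 2 of 8, 5 of 14 and 2 of 17 genes called higher. As shares these were 25%, 25%, 25%, 35.7% and 11.8%, beside 29.9% of all genes. None of the 7 core subunits of complex I passed. Without null library 1 the counts of complexes I to V were 15, 4, 6, 9 and 7. Without WT library 1 they were 3, 0, 1, 2 and 0, and with equal totals 1, 0, 1, 2 and 0. The D1 and D3 comparisons used different libraries of the same mice. Of the 34 genes called higher at D1, 18 (52.9%) were also called at D3, which was 94.7% of the 19, and of the 6 genes called lower at D1, 5 (83.3%) were called lower at D3, which was 100% of the 5. With equal totals 4 members were called higher at D3 (Ndufb9, Uqcrc1, Cox5a and Cox7a1) and 11 lower, 4 subunits and 7 assembly factors, where 21.6% of all genes were called higher and 39.8% lower. The number of calls rested on single libraries: without WT library 1, 2 or 3 it was 10, 15 and 12, without null library 1 it was 46, and without null library 3 the subunits called higher were 10.

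The assembly factors called lower at D3 were Ndufaf2, Ndufaf4, Ndufaf5, Ndufaf6 and Ndufaf7. Ndufaf6 had 236, 257 and 241 in WT and 180, 161 and 186 in null (-0.48, SE 0.12, adjusted p = 0.011). Ndufaf2 had 342, 339 and 365 in WT and 240, 258 and 275 in null (-0.44, SE 0.11, adjusted p = 0.0097), and Ndufaf7 had 525, 517 and 517 in WT and 423, 361 and 405 in null (-0.39, SE 0.10, adjusted p = 0.010). For each the genotypes were apart, and the WT libraries of Ndufaf7 were close to each other. Ndufaf5 differed by -0.39 (adjusted p = 0.015) and Ndufaf4 by -0.26 (adjusted p = 0.016). Without WT library 3, 3 of the 8 assembly factors remained called, and without WT library 2 Ndufaf6 had an adjusted p of 0.050 and was no longer called. Together the 8 genes made up 172, 175 and 175 CPM in WT and 135, 115 and 131 CPM in null, and the mean log2 count of assembly factors relative to complex I subunits was -2.17 ± 0.05 in WT and -2.60 ± 0.15 in null (SD, n = 3).

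The subunit gene with the largest rise at D3 was Cox7a1, the isoform of a complex IV subunit known mainly from heart and skeletal muscle. It had 356, 413 and 368 normalized reads in WT and 620, 983 and 671 in null (0.97, SE 0.17, adjusted p = 0.002; 0.77 and 0.0029 with equal totals), and was called under all 18 alternatives. At D1 it had 321, 362 and 230 in WT and 462, 303 and 491 in null, which overlapped (0.45, adjusted p = 0.13), and in crypts 997, 1109 and 1231 in WT and 1142, 800 and 1227 in null (-0.09, adjusted p = 0.83). Per length, its level in WT was 90.1 ± 8.17 CPM per kilobase in crypts, 26.4 ± 6.23 at D1 and 32.6 ± 2.48 at D3, and in null D3 enteroids 56.2 ± 10.9 (SD, n = 3). The D3 null mean thus lay between that of WT enteroids and those of the crypts. Its counterpart Cox7a2 was at 223 ± 8.55 CPM per kilobase in WT D3 enteroids and was not called (0.10, adjusted p = 0.40; -0.10 with equal totals). Muscle markers (Actn2, Ckm, Mb, Tnnt3, Myh1, Des and Acta1) summed to 16.7 to 22.2 CPM in WT and 13.2 to 18.7 CPM in null at D3. Of the 7 only 3 were listed and 1 was tested, which was not called.

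Other subunits called at D3 were Ndufb9, with 2878, 3213 and 3157 in WT and 3635, 4776 and 4205 in null (0.44, SE 0.11, adjusted p = 0.0088), Uqcrc1 (0.45, adjusted p = 0.0099), Cox5a (0.44, adjusted p = 0.0078) and Ndufb7 (0.40, adjusted p = 0.0069). Each of these 4 kept its call when any library was left out. Sdha had 15213, 15098 and 15593 in WT and 17184, 20717 and 18604 in null (0.30, SE 0.10, adjusted p = 0.028), a call lost when any 1 WT library or null library 3 was left out (adjusted p of up to 0.085). In complex V the 2 calls, Atp5md (0.30) and Atp5o (0.29), had an adjusted p of 0.037 and 0.031, and both reached 0.11 when WT library 1 was left out. Sdhb, Sdhc and Sdhd were not called, with differences of 0.24, 0.18 and 0.28 (0.036, -0.022 and 0.080 with equal totals).

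Within each set of isoform genes the order of the levels per length was the same in all 6 groups. Cox6a1 was at 441 ± 17.4 CPM per kilobase in WT D1 enteroids and its muscle-type counterpart Cox6a2 at 0.0707 ± 0.0613 (SD, n = 3). Cox6a2 had 5.75, 5.94 and 31.1 normalized reads in WT crypts and 0, 1.90 and 1.02 in null crypts, too few for the test. Cox6b2, known from testis, had 21.5, 20.5 and 19.4 normalized reads in WT and 6.83, 11.9 and 13.5 in null at D3 and did not pass (-0.92, adjusted p = 0.053; -1.10 and 0.023 with equal totals). All null libraries of Cox6b2 lay below WT at D3, at counts close to the filter. Ndufa4l2, the counterpart of Ndufa4 that is induced by low oxygen, had at most 8.91 normalized reads in any library and was not tested.

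**Figure D5:**
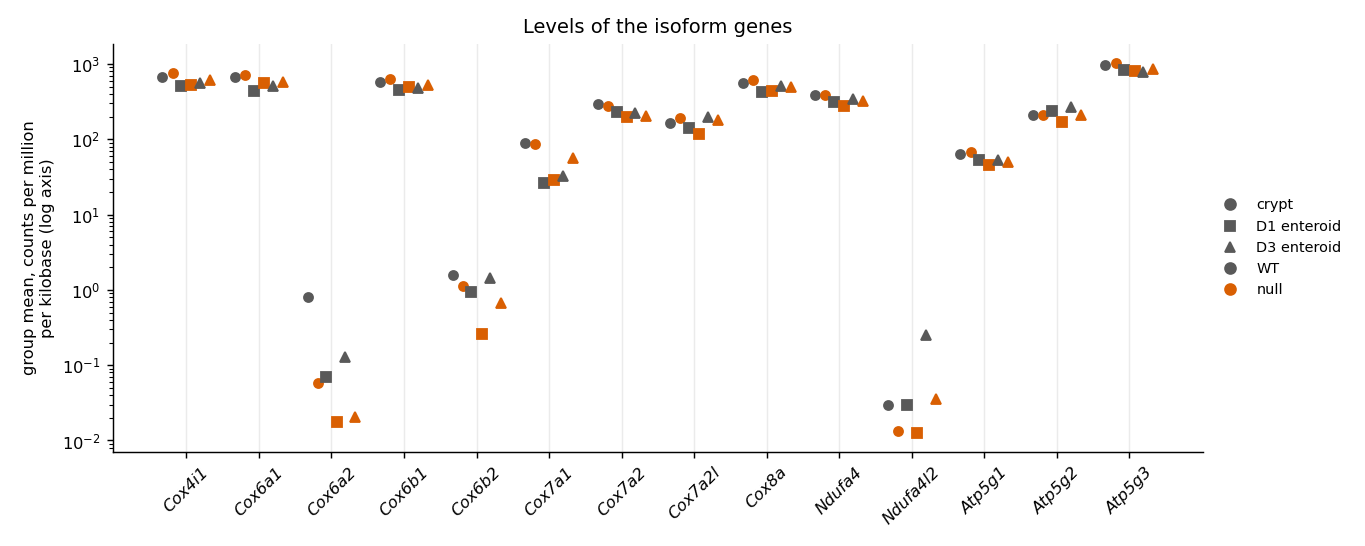
Group means (n = 3) in CPM per kilobase (log y axis) of isoform genes of complex IV and of the c subunit genes of complex V, with symbol shape for the time point and colour for the genotype. Cox7a1 is lower in enteroids than in crypts and at D3 higher in null (56.2) than in WT (32.6), while Cox6a2, Cox6b2 and Ndufa4l2 are at or below 1.57 in every group.

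To test whether the genotype difference itself changed between time points, the differences were compared in a single fit of the 18 libraries that treated mice as a random effect. From crypt to D1 the difference rose for 13 of 86 members, where it rose for 20.3% of all 12145 genes tested. It fell for 3 members, where it fell for 21.1% of all genes. In both directions the share of members was the smaller. The genes that fell were Ndufaf2 (change of the log2 difference -1.06, SE 0.21, adjusted p = 0.0025), Ndufaf4 (-0.71, SE 0.14, adjusted p = 0.0019) and Ndufaf6 (-0.62, SE 0.18, adjusted p = 0.014), and each was called under all 23 alternatives. In crypts Ndufaf2 had 246, 265 and 198 normalized reads in WT and 292, 250 and 293 in null, and Ndufaf4 had 1148, 1232 and 1067 in WT and 1201, 1400 and 1369 in null, so that both differences went from a small positive value to a negative one. The largest rises were those of Sdhb (0.63, adjusted p = 0.0061), Ndufa6 (0.59, adjusted p = 0.0052), Cox6a1 (0.57, adjusted p = 0.039), Ndufv3 (0.56, adjusted p = 0.017) and Uqcrc1 (0.54, adjusted p = 0.021). With equal totals no subunit rose, 9 subunits fell and 7 assembly factors fell. The 16 calls became 10 without WT crypt library 1 or 2, 6 without null crypt library 2, 7 and 8 without WT D1 libraries 2 and 3, 8 and 5 without null D1 libraries 1 and 3, and 20 subunits rose without null D3 library 2. Ndufa6 and Sdhb kept their calls when any 1 of the 18 libraries was left out. Ndufv3 and Uqcrc1 had an adjusted p of 0.064 and 0.072 without null D1 library 3, and the rise of Cox6a1 was lost in 9 of the 18 omissions.

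From crypt to D3 the difference rose for 2 members, Cox7a1 (1.06, SE 0.31, adjusted p = 0.020) and Sdhb (0.45, SE 0.16, adjusted p = 0.038), beside 16.5% of all genes, and fell for 2, Ndufaf2 (-0.68, SE 0.21, adjusted p = 0.028) and Ndufaf4 (-0.47, SE 0.14, adjusted p = 0.020), beside 15.1%. The count of 4 became 2 without null crypt library 1, WT D3 library 2 or WT D3 library 3, 1 without null crypt library 2 and 15 without null D3 library 1. Without null crypt library 2 the adjusted p was 0.055 for Cox7a1 and 0.051 for Ndufaf4. Sdhb kept its call in 8 and Ndufaf2 in 14 of the 18 omissions, and the call of Sdhb was also lost with equal totals and in the fit with a replicate block, with an adjusted p of up to 0.15. From D1 to D3 limma called 0 of 86 members, with 1 at an unadjusted p under 0.05, where 0.0247% of all genes rose and 0.00823% fell. The smaller differences at D3 were thus not shown to differ from those at D1.

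Of 39 assembly factors tested from a list outside the pattern, 10 were called higher and 10 lower at D1, and 6 higher and 9 lower at D3, where 30.0% and 28.9% of all genes were called at D1 and 29.9% and 29.1% at D3, so that neither direction exceeded the share of all genes. Grouped by the complex they serve, which was done after their values were seen, the 8 factors of complex I had 0 called higher and 4 lower at D1 (Acad9, Dmac1, Ecsit and Tmem186), and the 22 of complex IV had 10 higher and 3 lower. Acad9 had 1277, 1321 and 1299 in WT and 994, 1031 and 913 in null (-0.41, SE 0.08, adjusted p = 0.0044), and Tmem186 had 772, 899 and 768 in WT and 496, 682 and 411 in null (-0.64, SE 0.18, adjusted p = 0.017). Cox17, the chaperone that brings copper to complex IV, had 744, 747 and 722 in WT and 1277, 1109 and 1419 in null at D1 (0.77, SE 0.11, adjusted p = 0.00085) and 688, 691 and 649 in WT and 983, 1193 and 1005 in null at D3 (0.64, SE 0.10, adjusted p = 0.001). The genotypes were apart in all of these. With equal totals 1 of the 10 complex IV factors was still called higher at D1, Cox17 (0.45, adjusted p = 0.0049), and 5 complex I factors were called lower. Tmem70, an assembly factor of complex V, fell at D1 (-0.56, adjusted p = 0.0019) and D3 (-0.46, adjusted p = 0.0024).

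Genes that supply or use the same chain were read from lists, whose counts stand beside 30.0% of all genes called higher and 28.9% lower at D1, and 29.9% and 29.1% at D3. Of the 13 mitochondrially encoded subunits 2 were called higher at D1 (mt-Atp6 0.80 and mt-Nd5 0.64) and 4 at D3, with medians of 0.21 and 0.14 that became -0.11 and -0.06 with equal totals. In the citrate cycle list 7 of 17 genes were called higher and 1 lower at D1, and 8 higher at D3. Ogdh, a subunit of the 2-oxoglutarate dehydrogenase complex, had 12211, 11017 and 12519 in WT and 23048, 18501 and 24997 in null at D1 (0.89, adjusted p = 0.0011), and Mdh2, malate dehydrogenase, rose by 0.82 (adjusted p = 0.0019), and both were also called higher with equal totals (0.57 and 0.50). Among carriers and subunits outside the pattern 7 of 12 were called higher and 1 lower at D1, with Gpd2, the glycerol-3-phosphate dehydrogenase that feeds ubiquinone, at 0.70 (adjusted p = 0.011), and Dhodh, the enzyme of pyrimidine synthesis that feeds it too, at -0.89 (adjusted p = 0.0055). In ubiquinone synthesis 4 of 13 genes were called lower and 3 higher at D1 and at D3. Coq2, which joins the ring to its side chain, had 987, 907 and 988 in WT and 541, 644 and 593 in null crypts (-0.70, adjusted p = 0.014), 1129, 1213 and 1150 in WT and 541, 611 and 548 in null at D1 (-1.04, adjusted p = 0.00018), and fell by 1.09 at D3. It was the single gene of these lists called at all 3 time points, in the same direction each time.

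Of 18 listed regulators of mitochondrial genes 4 were called higher and 9 lower at D1, beside 30.0% and 28.9% of all genes. At D3 4 were called higher and 7 lower, beside 29.9% and 29.1%, and in crypts 0 were called. Esrra, a nuclear receptor for genes of oxidative metabolism, had 2912, 2968 and 3183 in WT and 4547, 4834 and 6058 in null at D1 (0.76, SE 0.12, adjusted p = 0.0013), and Ppara, a receptor for genes of fatty acid oxidation, had 634, 652 and 541 in WT and 1422, 1535 and 1317 in null (1.23, SE 0.11, adjusted p = 0.00018). Esrrg, a relative of Esrra, had 346, 458 and 460 in WT and 118, 171 and 92.6 in null at D1 (-1.75, SE 0.24, adjusted p = 0.00076) and 991, 926 and 939 in WT and 139, 110 and 168 in null at D3 (-2.79, SE 0.16, adjusted p = 1.1e-05). Tfam, which maintains and transcribes mitochondrial DNA, had 1916, 1925 and 1802 in WT and 1103, 1192 and 1024 in null at D1 (-0.77, SE 0.09, adjusted p = 0.00042). The genotypes did not overlap for any of these 4 genes, and their directions were the same with equal totals. Pprc1, a coactivator of the PGC-1 family, fell by 1.11 at D1 (adjusted p = 0.0014).

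The cell type markers of the libraries also differed with genotype, those of secretory cells already in crypts. Counts of calls below stand beside 1.58% of all genes called higher and 3.15% lower in crypts. At D1 these shares were 30.0% and 28.9%, and at D3 29.9% and 29.1%. Of the epithelial markers that define the tissue, 8 of 8 passed the filter on low values at every time point, and 1 was called higher in crypts, 5 at D1 and 6 at D3 (6153 to 6634 CPM in WT and 10182 to 10887 CPM in null at D3). Enterocyte markers were called higher for 14 of 15 at D1 and at D3, summing to 13853 to 17002 CPM in WT and 24805 to 34619 CPM in null at D1, and to 9710 to 11235 CPM in WT and 19162 to 30004 CPM in null at D3. Markers of stem and cycling cells were called lower for 11 of 11 at both, summing to 2738 to 3787 CPM in WT and 455 to 825 CPM in null at D1. Secretory markers were called lower for 6 of 11 in crypts, 10 of 11 at D1 and 11 of 11 at D3. In crypts, where no member was called, enterocyte markers had 0 called higher and 1 lower of 15. They summed to 26435 to 31224 CPM in WT and 19287 to 30075 CPM in null. Of the stem and cycling markers 1 of 11 was called lower in crypts, Olfm4. Their sums, with Olfm4 included, were 1893 to 2451 CPM in WT and 696 to 1150 CPM in null and did not overlap. Sums without Olfm4 were not compared. Genes of the mitochondrial ribosome were called lower for 36 of 78 and higher for 3 at D1, and those of the cytosolic ribosome lower for 74 of 80. Stromal markers summed to at most 2.25 CPM in any enteroid library, and immune markers, with 0 of 10 called in crypts, to 96.8 to 438 CPM in WT and 42.5 to 74.4 CPM in null crypts and to at most 22.9 CPM in enteroids. The part of these shifts in the differences of the oxidative phosphorylation genes was not tested.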

How the data were processed

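Crypts and enteroids of 3 mice per genotype were profiled by bulk RNA sequencing (TruSeq stranded mRNA libraries, single reads). Per the study's methods reads were trimmed by the authors (fastp 0.20.0) and transcripts quantified on the mouse GENCODE transcriptome (Salmon 1.3.0), summarised to genes with tximeta and compared between genotypes with DESeq2 1.26.0, leaving out genes with counts of at most 1. The deposited signal values are these gene counts divided by 1 factor per library, separately for each time point. The deposited tables also hold the authors' mean, log2 fold change and its standard error, test score (Wald statistic) and p-values. None of these comparison columns was used. No column of an unlabelled sample was found.

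Here log2(normalized count + 1) of genes with a mean of at least 10 was fitted with limma 3.58.1 (R 4.3.3, eBayes with a trend, two-sided, Benjamini-Hochberg over all genes tested, threshold 0.05), for each time point on its 6 libraries and for changes between time points on all 18 with duplicateCorrelation (within-mouse correlation -0.00481). Fold changes of genes with low counts are understated by the added 1. A difference is thus relative to the normalization of its table. Whole reads were recovered in 16 columns (100% of values whole within 0.1), and edgeR 4.0.16 and DESeq2 1.42.0 were run on them as alternatives. The 2 other columns, a WT crypt and a null D3 library of mouse 2, had a step too close to 1 to tell, and these libraries were left out of the edgeR and DESeq2 fits. CPM are normalized counts over the library sum, and levels per length divide them by the longest coding transcript. Scripts were tested on simulated counts.

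Reads of processed copies of these genes elsewhere in the genome may be shared between loci, and the values of members with such copies are uncertain to that extent. The labels number mice 1 to 3 in each genotype without stating a link between genotypes. The deviations of same-numbered libraries from their group means had correlations of 0.116, 0.231 and 0.216 at D1 and 0.0764, 0.274 and 0.346 in crypts. At D3 they were -0.00666, -0.00226 and -0.0156. Between libraries of different numbers the correlations ran from -0.19 to -0.0152 at D1 and from -0.302 to 0.201 in crypts. At D3 those ran from -0.0967 to 0.105. The same mice gave the libraries of every time point, so these values do not settle whether the numbers mark pairs. The main fits used no pairs. Members and gene lists were chosen with earlier results of these data known. Members named were, per time point and class, the 3 largest rises and falls past the threshold, all Sdh and Sdhaf genes, the most abundant gene of each class per length and fixed isoform pairs, with the 2 largest rises and falls of each list and the 5 largest changes between time points. Other genes were named after their values were seen, namely Acad9, Dmac1, Ecsit, Ndufaf1, Ndufaf3, Ndufb11, Ndufc2, Ndufs3, Ndufs4, Ndufs5, Ndufs8 and the muscle markers, and single values of other named genes at further time points. Not all genes that the rule names are reported here. Alternatives were other pseudocounts (0.1 and 8), no filter, other scalings, array weights, a fit without the trend, a block for the mouse number and the omission of each library.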

Additional observations from a re-analysis of the deposited data

Results flagged for a closer look

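The results below were picked out because the genotype difference itself differed between 2 time points in the single limma fit of all 18 libraries (changes of the log2 difference, null minus WT). From crypts to D1 the difference rose for 13 of 86 members, beside 20.3% of all genes tested, and fell for 3, beside 21.1%. In both directions the share of members was smaller than that of all genes. The named rises were those of Sdhb (0.63), Ndufa6 (0.59), Cox6a1 (0.57), Ndufv3 (0.56) and Uqcrc1 (0.54), and with equal library totals no subunit rose. The falls were those of the complex I assembly factors Ndufaf2 (-1.06), Ndufaf4 (-0.71) and Ndufaf6 (-0.62), which kept their calls under all 23 alternatives tried for this change.

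From crypts to D3 the difference rose for 16.5% of all genes and fell for 15.1%. Among the 86 members it rose for 2, Cox7a1 (1.06) and Sdhb (0.45), and fell for 2, Ndufaf2 (-0.68) and Ndufaf4 (-0.47). Each of these 4 calls was lost in at least 1 omission of a single library. From D1 to D3 it rose for 0 and fell for 0 of 86 members, with 1 member at an unadjusted p under 0.05. Markers of enterocytes and of stem and secretory cells also differed between the genotypes at D1 and D3. In crypts 6 of 11 secretory markers were already called lower, beside 3.15% of all genes. Of the stem and cycling markers 1 of 11 was called lower in crypts (Olfm4), and their sums, with Olfm4 included, did not overlap. The part of these marker shifts in the changes was not tested.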

How the results depend on the processing

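In crypts 0 members were called under the alternatives tried, also without both mouse 3 libraries (chosen after seeing the data), except with array weights, which gave 3 calls (1 subunit higher, 1 lower and 1 complex I assembly factor lower). At D1 rescaling gave, with equal totals, equal totals without mitochondrially encoded genes and quantile normalization in this order, 18, 20 and 23 members called, 2, 4 and 10 subunits higher, 9, 9 and 8 lower, and a median difference of -0.087, -0.077 and -0.0089. At D3 the same scalings gave 15, 15 and 14 members, 4, 4 and 6 subunits higher, 4, 4 and 3 lower, and medians of -0.041, -0.046 and -0.015. Subunits called lower, 0 on the deposited values, were 1 at D1 with no filter or array weights and 2 with median ratios, edgeR or DESeq2, and 1 at D3 with pseudocount 8, median ratios or no trend. Array weights at D3 called 54 members, 48 of them subunits higher. For the change from crypts to D1, equal totals left 0 subunits that rose, 9 that fell and 7 assembly factors that fell, and quantile normalization 10 members, 4 subunits up and 3 down. For the change to D3, equal totals gave 1 subunit up and 1 down and quantile normalization 1 down. Among named genes called on either scale, signs reversed at D1 with equal totals for Atp5g1 (-0.23), Atp5g3 (-0.058), Cox7a2 (-0.21), Sdhaf2 (-0.051), Sdhc (-0.075) and Uqcr11 (-0.061), and with quantile normalization for Atp5b (-0.36), Atp5g1 (-0.26), Atp5g3 (-0.13), Atp5pb (-0.015) and Sdhc (-0.061), and at D3 with quantile normalization for Atp5b (-0.34). Without the mitochondrially encoded genes the members made up 24176, 18945 and 19570 CPM in WT crypts, D1 and D3 and 25251, 18572 and 19675 CPM in null. The median difference of the complex I assembly factors stayed negative under every alternative, from -0.84 to -0.45 at D1 and from -0.53 to -0.28 at D3. The cause of these changes was not tested.

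Leaving out 1 library at a time gave 24 to 50 members called at D1 (19 to 44 subunits higher, 0 to 1 lower, 5 to 6 assembly factors lower, median 0.19 to 0.28) and 10 to 46 at D3 (6 to 41, 0 to 1 and 3 to 5, median 0.10 to 0.26). In crypts it gave 0, with a median of -0.01 to 0.10. The change from crypts to D1 held 5 to 24 members (2 to 20 subunits up, 3 to 4 assembly factors down) and that to D3 1 to 15 (0 to 13 and 1 to 2).

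Whether the mouse numbers mark pairs is not known. With the mouse number as a replicate block, 49 members were called at D1 (42 subunits higher, 1 lower and 6 assembly factors lower), beside 40 in the main fit. At D3 the block gave 32 calls, beside 24 in the main fit. It gave 0 in crypts, 12 for the change from crypts to D1, 3 for that to D3 (1 subunit up) and 0 between D1 and D3. No other count moved by over 1.5 times under the block. Depth limits Cox6a2, Cox6b2 and Ndufa4l2, whose counts are near or under the filter.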

Other observations

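Targets of the response to low oxygen had 9 of 14 genes called higher and 0 lower at D1, beside 30.0% and 28.9% of all genes, and 5 higher and 1 lower at D3, beside 29.9% and 29.1% (limma, medians 0.64 and 0.51, and 0.32 and 0.31 with equal totals). Ndrg1, a stress-responsive gene of differentiating epithelia, had 4425, 3680 and 3620 normalized reads in WT and 14190, 11645 and 13066 in null at D1 (log2 difference 1.73, SE 0.12, adjusted p = 7.1e-05). Bnip3, which marks mitochondria for removal, had 200.3, 230 and 93.0 in WT and 757, 606 and 570 in null (1.97, adjusted p = 0.0016). Slc2a1, the glucose transporter GLUT1, was called higher at all 3 time points, with 570, 597 and 410 in WT and 939, 975 and 835 in null crypts (0.82, adjusted p = 0.039), and by 0.69 at D1 and 0.72 at D3. In crypts it did not pass with equal totals (0.85, adjusted p = 0.053). Pdk1, a kinase that holds back pyruvate dehydrogenase, was lower in null at D3 (-0.51, adjusted p = 0.016).

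Genes of the outer membrane and cristae had 1 of 13 called higher and 4 lower at D1 and 1 and 1 at D3, against the same shares of all genes. Vdac2, a channel of the outer membrane, had 12612, 10323 and 12785 in WT and 19416, 15702 and 19433 in null at D1 (0.61, adjusted p = 0.0053). Chchd6, a cristae organising protein, had 109, 139 and 117 in WT and 48.98, 65.4 and 48.5 in null (-1.15, adjusted p = 0.0024), and the 2 genotypes did not overlap for either gene. Among mitochondrial ribosomal proteins Mrpl3 had 1643, 1551 and 1594 in WT and 901, 966 and 742 in null at D1 (-0.88, adjusted p = 0.0006), and Mrps36, a protein once assigned to the ribosome and now known from the 2-oxoglutarate dehydrogenase complex, had 941, 856 and 929 in WT and 1404, 1368 and 1351 in null (0.60, adjusted p = 0.00081). At D3 the list had 26 of 78 called lower and 4 higher, beside 29.1% and 29.9% of all genes.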
